A study of Mus musculus with 12 samples.

Results

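The genes described here are the secreted WNT ligands, their receptors and co-receptors, the proteins that bind or modify the ligands outside the cell, and the intracellular scaffolds and transcription factors of the pathway. The families were proposed with earlier results of these data known, and the members are every row of the count table named for a WNT, Frizzled, SFRP, DKK or R-spondin gene or for Lgr4 to Lgr6, Lrp5, Lrp6, Ror1, Ror2, Frzb, Wif1, Notum, Znrf3, Rnf43, Axin1, Axin2, Nkd1, Nkd2, Lef1, Tcf7, Tcf7l1 or Tcf7l2. This gave 61 of 24470 genes, of which 50 had counts high enough for testing, among 15572 tested in all. Bulk RNA-seq was made from mouse testes at E14.5, with 6 control pools (genotype Nr2f2 f/f) and 6 conditional knockout pools (Wt1 CreER; Nr2f2 f/f, here cKO), each pool holding 3 testes and giving 1 library. Nr2f2 encodes the nuclear receptor COUP-TFII, which marks non-steroidogenic interstitial cells of the fetal testis. Both groups carry the floxed allele, which bears a LacZ cassette that is transcribed once the gene has been cut. Cre recombinase, made under the control of the Wt1 locus and so in Wt1-expressing somatic progenitors, was switched on with tamoxifen at E11.5 and E12.5. The comparison asks how the loss of Nr2f2 from these progenitors changed the RNA of the whole testis. In whole tissue, fewer cells of a type and less RNA per cell cannot be told apart.

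WNT proteins are lipid-modified signals that act over short distances. When a WNT binds a Frizzled together with LRP5 or LRP6, the AXIN and APC complex stops degrading β-catenin, which then enters the nucleus and acts with LEF1 and the TCF proteins; other WNTs, WNT5A among them, act through ROR receptors and cell polarity instead. R-spondins bound to LGR receptors protect Frizzleds from the membrane ligases ZNRF3 and RNF43 and so make a cell more sensitive to WNT. In the fetal gonad, WNT4 and RSPO1 with β-catenin drive ovarian development, and the testis programme holds that branch down, while WNT5A is made by the testicular interstitium.

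Total counts ran from 7044531 to 39965574 in control and from 7322959 to 59404778 in cKO libraries, and the biological coefficient of variation between pools was 0.170. Levels are given as CPM, which are counts per library after TMM scaling brought to a common depth, and a negative log2 fold change, which is given with its standard error (SE), means less RNA in cKO testes. Nr2f2 itself ranged from 162 to 186 CPM in control and from 50.2 to 119 CPM in cKO pools, so part of its message remained in every cKO pool. The labels of control pools name no Cre. Effects of the Wt1 CreER allele itself and of the loss of Nr2f2 therefore cannot be told apart. The Sertoli markers of the testis label were present in all 12 libraries, with a summed level of 514 to 953 CPM in control and 536 to 962 CPM in cKO pools. Xist, which is transcribed from the inactive X chromosome of XX cells, stood at 891 CPM in control replicate 1 and at 304, 507 and 432 CPM in cKO replicates 3, 5 and 6, against 5.15 to 7.67 CPM in the other 8 libraries. The summed level of 4 XY genes was 197 CPM in control replicate 1 and 225 to 258 CPM in those cKO pools, against 306 to 445 CPM in the other controls and 286 to 318 CPM in the other cKO pools. The labels call all 12 libraries testis, and whether the 4 high-Xist pools held XX gonads or were exchanged was not tested. The 3 high-Xist cKO pools also had the least Nr2f2, 50.2 to 75.3 CPM against 78.7 to 119 CPM in the other cKO pools, so that within cKO testes high Xist and low residual Nr2f2 cannot be told apart. Results are therefore given for all 12 libraries and for the 8 libraries with Xist under 100 CPM, 5 control and 3 cKO.

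Of the 50 tested WNT genes, 11 passed an adjusted p of 0.05 (edgeR's quasi-likelihood test, adjusted by Benjamini-Hochberg over all genes), 6 lower and 5 higher in cKO testes. That is 22% of the tested members, beside 8.13% of all genes tested (4.85% lower, 3.28% higher). The 6 that fell were the ligands Wnt4, Wnt5a and Wnt5b, the receptors Fzd1 and Ror2, and the antagonist Sfrp1. The 5 that rose were the antagonists Dkk1, Sfrp2 and Frzb and the R-spondin receptors Lgr4 and Lgr6. None of the 16 R-spondin, co-receptor, membrane ligase, AXIN, NKD and TCF/LEF genes passed over 12 libraries in edgeR, DESeq2 or limma-voom with genotype as the only term, and 1 of them, Rspo2, had an unadjusted p under 0.05 in edgeR. Nkd1 passed as lower in edgeR once the level of Xist was added to the model as a covariate. The median log2 fold change over the tested members was 0.02, with 24 negative and 26 positive, and the median size of the change was 0.25, beside 0.15 over all genes tested. In 6 members the 6 control and 6 cKO values did not overlap, 4 with the cKO pools below and 2 with the cKO pools above, whereas 5.52% of all genes tested were separated in either direction.

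The same number passed in the 8 libraries with low Xist, 5 lower and 6 higher, where 7.08% of the genes tested passed. Of the 11 found in all libraries, 8 passed there too. Fzd1, Ror2 and Frzb did not, and Lgr5, Rspo2 and Sfrp4 passed there but not over all 12 libraries in edgeR with genotype as the only term. With Xist as a covariate over 12 libraries 14 members passed, where 8.40% of all genes did: 10 of the 11, without Fzd1 (adjusted p = 0.0522), and Lgr5 (0.46, adjusted p = 0.00868), Sfrp4 (-0.53, adjusted p = 0.0292), Nkd1 and Wnt2b in edgeR. DESeq2 on all 12 libraries found 13 members, all of those 11 and Fzd10 and Sfrp4 besides, where it called 11.6% of genes. Without control replicate 1, where 19.9% of all genes were called, 18 members passed in edgeR: the same 11 and Axin1, Axin2, Fzd2, Lgr5, Rnf43, Sfrp4 and Wnt6. The remaining single-library omissions gave between 6 and 11 members, with 5.24% to 7.96% of all genes called, and Dkk1, Sfrp1, Sfrp2, Wnt5b and Lgr4 passed in all 12 of these fits.

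**Figure D1:**
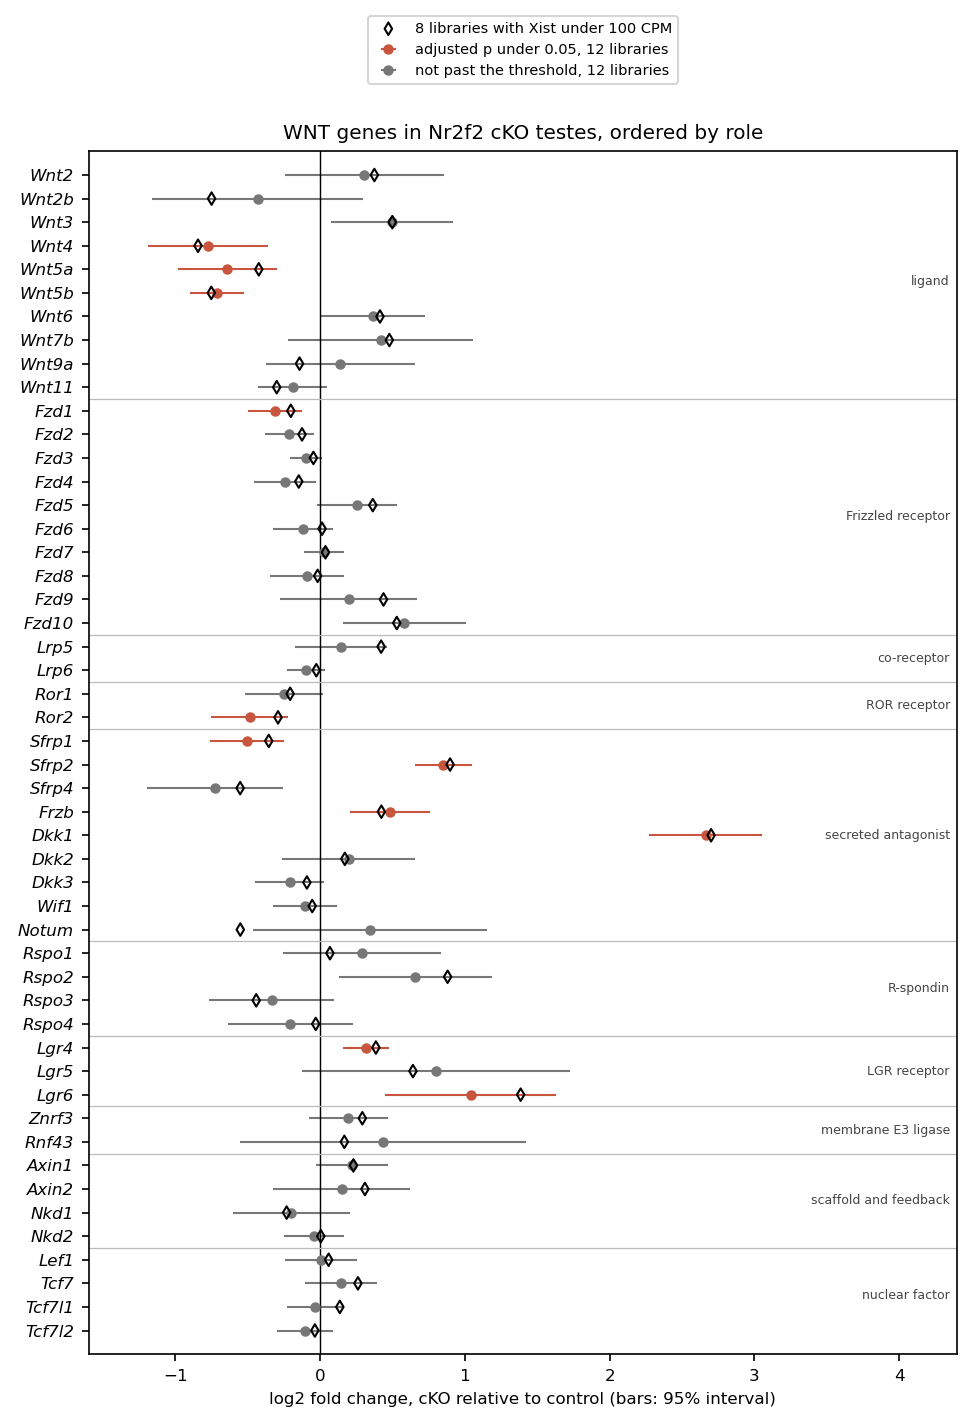
Log2 fold change in cKO relative to control testes for the 50 tested WNT genes, grouped by role; dots and bars are the estimate and its 95% interval over 12 libraries (red where the adjusted p was under 0.05) and open diamonds are the estimate in the 8 libraries with Xist under 100 CPM. Dkk1 lies apart at 2.66, and Wnt4, Wnt5a and Wnt5b lie between -0.77 and -0.64.

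Promoter sequence is shown for the members that rose or fell and carried a motif match, and for Sfrp2, which rose with no match. The 300-base windows run from 250 bases before to 50 bases after a RefSeq transcription start on GRCm38.p6, the build of the counts, and read 5′ to 3′ on the strand of the gene. Capitals mark cores bound by TCF and LEF proteins, of which Dkk1 holds CTTTGAA followed by CTTTGTT, while Wnt5b holds CTTTGAT. In Frzb they mark TGACCT, which is the nuclear receptor motif AGGTCA read on the opposite strand. These 4 motifs were searched on both strands. The windows are chr19:30549447-30549746 (minus strand) for Dkk1, chr6:119449337-119449636 (minus strand) for Wnt5b, chr2:80447347-80447646 (minus strand) for Frzb and chr3:83766071-83766370 (plus strand) for Sfrp2.
Dkk1: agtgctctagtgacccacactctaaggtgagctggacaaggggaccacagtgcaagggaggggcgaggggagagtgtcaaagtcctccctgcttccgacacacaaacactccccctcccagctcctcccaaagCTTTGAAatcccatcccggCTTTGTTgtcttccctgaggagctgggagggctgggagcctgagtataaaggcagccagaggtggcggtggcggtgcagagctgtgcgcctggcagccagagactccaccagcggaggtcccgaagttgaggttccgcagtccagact
Wnt5b: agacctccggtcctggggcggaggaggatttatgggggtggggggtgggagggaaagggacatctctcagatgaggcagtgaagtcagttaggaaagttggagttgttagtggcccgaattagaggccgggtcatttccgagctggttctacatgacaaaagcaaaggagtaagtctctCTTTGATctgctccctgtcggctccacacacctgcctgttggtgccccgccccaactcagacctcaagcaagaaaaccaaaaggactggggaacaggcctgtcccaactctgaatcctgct
Frzb: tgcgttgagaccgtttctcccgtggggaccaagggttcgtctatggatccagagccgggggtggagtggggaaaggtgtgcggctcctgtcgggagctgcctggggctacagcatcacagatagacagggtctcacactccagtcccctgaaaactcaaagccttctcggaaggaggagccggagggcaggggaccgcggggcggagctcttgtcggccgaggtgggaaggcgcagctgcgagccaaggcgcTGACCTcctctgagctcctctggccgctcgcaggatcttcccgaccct
Sfrp2: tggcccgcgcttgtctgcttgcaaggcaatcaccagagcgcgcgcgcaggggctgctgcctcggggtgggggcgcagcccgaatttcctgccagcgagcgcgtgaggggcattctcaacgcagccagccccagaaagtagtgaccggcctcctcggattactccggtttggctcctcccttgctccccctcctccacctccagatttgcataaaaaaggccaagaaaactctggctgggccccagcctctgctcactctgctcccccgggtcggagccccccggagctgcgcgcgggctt

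Both cores of Dkk1 lie upstream of its start, with their first bases 117 and 98 bases before it. The core of Wnt5b begins 71 bases before the start shown, which is 1 of 3 starts listed for the gene, and the other windows of Wnt5b hold neither motif. In Frzb the motif begins at transcribed base 3. Windows were given for 41 of the 61 members, 50 windows in all, and Wnt5a and Sfrp1 were not among them. One of the 3 TCF/LEF cores, on either strand, stood in 6 of these 50 windows, or 12%, beside 13.9% of 32851 windows of the same length in the whole RefSeq table. For AGGTCA the counts were 3 windows, or 6%, beside 16.3%. The letters are a description of these windows, and binding was not measured in these libraries.

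Among the ligands, 3 of 10 tested fell, beside 4.85% of all genes tested. None passed as higher over 12 libraries in edgeR, DESeq2 or limma-voom, and 1, Wnt3, had an unadjusted p under 0.05 in edgeR. Wnt3 passed as higher without control replicate 3 (0.67, adjusted p = 0.0417 in edgeR) and Wnt6 without control replicate 1 (0.48, adjusted p = 0.0467 in edgeR). Wnt5a (Entrez Gene 22418, chr14:28505473-28525515 on mm10), the ligand of the ROR branch, was the ligand with the most counts. Its level in control testes was 255 CPM in the lowest, 334 in the median and 351 in the highest pool, and in cKO testes 125, 212 and 277 CPM. The lowest control, replicate 1, lay below 2 of the cKO pools, and the 5 other controls lay above all cKO pools. Its log2 fold change was -0.64 (SE 0.16, adjusted p = 0.0241 in edgeR), and -0.42 in the 8 low-Xist libraries (adjusted p = 0.0133, edgeR). The call of Wnt5a on all libraries was lost without control replicate 6, cKO replicate 3 or cKO replicate 6, where edgeR gave it an adjusted p of 0.0566, 0.05002 and 0.0544.

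Wnt5b (Entrez Gene 22419, chr6:119432531-119544347), the close paralogue of Wnt5a, gave the most even separation of the ligands. Control pools ranged from 18.8 to 22.6 CPM around a median of 20.8, and cKO pools from 10.5 to 14.54 CPM around a median of 12.6. Every cKO pool was below every control pool, whatever its Xist level. Wnt5b had a log2 fold change of -0.72 (SE 0.09, adjusted p = 0.000284 in edgeR) and -0.75 in the 8 libraries.

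Wnt4 (Entrez Gene 22417, chr4:137277635-137299501), needed for the ovary, the kidney tubules and the Müllerian duct, fell as well, but its levels followed Xist in part. The lowest, median and highest control pools stood at 51.8, 60.9 and 109.9 CPM, and the cKO pools at 26.0, 44.1 and 49.5 CPM. All cKO pools were below all control pools, and the high control value was that of replicate 1. Its log2 fold change was -0.77 (SE 0.19, adjusted p = 0.0249 in edgeR), -0.84 in the 8 libraries (adjusted p = 0.00686, edgeR) and -0.58 without control replicate 1 (adjusted p = 0.0167, edgeR). Among the low-Xist libraries, the 5 controls had 51.8 to 63.3 CPM and the 3 cKO pools 26.0 to 43.4 CPM, while the 3 high-Xist cKO pools had 44.8 to 49.5 CPM. Wnt4 missed the threshold without cKO replicate 1 (adjusted p = 0.0574, edgeR) and without cKO replicate 4 (adjusted p = 0.0510, edgeR).

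The other tested ligands did not pass. Wnt6, made by embryonic epithelia such as the ureteric bud, ranged from 45.6 to 125 CPM with a median of 91.2 in control and from 105 to 129 CPM with a median of 114 in cKO testes, for a log2 fold change of 0.36 (SE 0.17, adjusted p = 0.201 in edgeR). The groups overlapped through control replicate 1, the highest control. Estimates for Wnt2, Wnt2b, Wnt3, Wnt7b, Wnt9a and Wnt11 lay between -0.43 for Wnt2b and 0.50 for Wnt3, with adjusted p from 0.137 to 0.749 in edgeR's test. That of Wnt2b ran from -0.61 to -0.08 with 1 library left out and was -0.75 in the 8 low-Xist libraries (adjusted p = 0.0591 in edgeR). With Xist as a covariate it was -0.78 and passed (adjusted p = 0.00714 in edgeR). A further 9 ligands (Wnt1, Wnt3a, Wnt7a, Wnt8a, Wnt8b, Wnt9b, Wnt10a, Wnt10b and Wnt16) were too low for testing, as were the antagonists Sfrp5 and Dkk4. None of these 11 genes exceeded 0.890 CPM or 31 counts in any library, and their total counts over 12 libraries were 5 to 129.

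**Figure D2:**
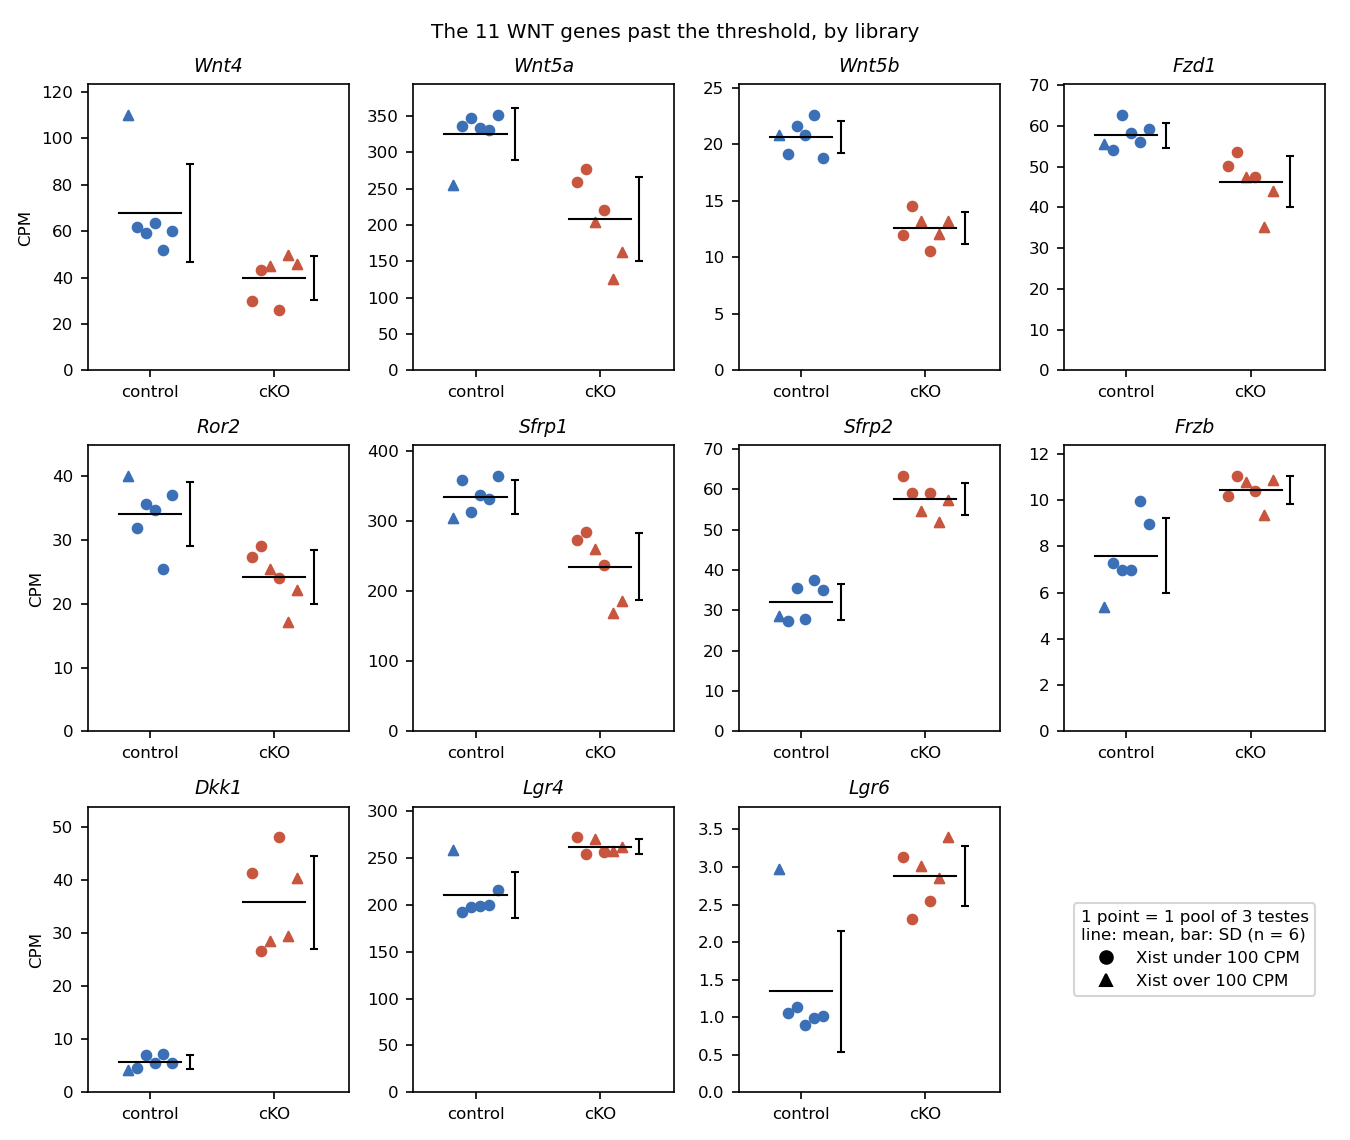
CPM of the 11 WNT genes past the threshold, 1 point per pool of 3 testes; lines are group means, bars are the SD (n = 6), and triangles mark the 4 libraries with Xist over 100 CPM. In Wnt5b, Fzd1, Sfrp1, Sfrp2, Dkk1 and Wnt4 the groups do not overlap, and control replicate 1 lies apart from the other controls in Wnt4, Wnt5a, Lgr4 and Lgr6.

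Of the 10 Frizzleds, the 7-pass receptors of the WNTs, 1 passed the test, a share near the 8.13% of all genes tested. Fzd1 had 54.2, 57.2 and 62.7 CPM in the lowest, median and highest control pools and 35.3, 47.4 and 53.6 CPM in the cKO pools. The cKO pools were all lower, by a narrow margin between the closest pools. Its log2 fold change was -0.31 (SE 0.09, adjusted p = 0.0384 in edgeR). With 1 library omitted at a time it passed in 4 of 12 fits, and in the 8 low-Xist libraries the estimate was -0.20 (adjusted p = 0.126, edgeR). Fzd2 and Fzd7 were the Frizzleds with the highest levels per kb of the longest transcript beside Fzd1. Fzd2 ranged from 73.2 to 93.5 CPM in control and from 64.8 to 84.3 CPM in cKO testes (log2 fold change -0.21, adjusted p = 0.117, edgeR). Fzd7 had an estimate of 0.02 with a 95% interval of -0.11 to 0.16. The largest estimate among the Frizzleds was that of Fzd10, 0.58 (SE 0.20, adjusted p = 0.0880 in edgeR), which passed in DESeq2 (adjusted p = 0.0398) and, without control replicate 3, in edgeR (adjusted p = 0.0214).

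Ror2, the receptor tyrosine kinase that binds WNT5A, fell from a control median of 35.2 CPM (25.4 to 40.0) to a cKO median of 24.7 CPM (17.2 to 29.1). Control replicate 5, the lowest control, lay among the cKO pools. The log2 fold change was -0.49 (SE 0.12, adjusted p = 0.0278 in edgeR), and -0.29 in the 8 low-Xist libraries (adjusted p = 0.146, edgeR). Of the 12 single-library omissions Ror2 passed in 7, and not without control replicate 3, 4 or 6 or cKO replicate 4 or 6 (adjusted p up to 0.0649 in edgeR). Its relative Ror1 had an estimate of -0.25 with a 95% interval of -0.52 to 0.02. The co-receptors of the β-catenin branch, Lrp5 and Lrp6, had estimates of 0.14 (-0.17 to 0.46) and -0.10 (-0.23 to 0.03).

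The secreted antagonists spanned the widest range of log2 fold changes, from -0.73 to 2.66, the upper end being Dkk1. Of 9 tested, 1 was lower and 3 were higher, beside 4.85% and 3.28% of all genes tested. Dkk1 (Entrez Gene 13380, chr19:30545876-30549496 on mm10) binds LRP5 and LRP6 and blocks the β-catenin branch. It had 4.30, 5.55 and 7.27 CPM in the lowest, median and highest control pools. In cKO testes these values were 26.7, 35.0 and 48.1 CPM. The lowest cKO pool was thus well above the highest control, in high-Xist and low-Xist libraries alike. This gave a log2 fold change of 2.66 (SE 0.18, adjusted p = 2.00e-06 in edgeR), a 6.33-fold rise, and 2.70 in the 8 libraries. It stayed between 2.56 and 2.75 whichever library was left out.

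The SFRP genes encode soluble proteins with a Frizzled-like domain that bind WNTs, and mice without Sfrp1 and Sfrp2 have abnormal male sexual development. Sfrp2 (Entrez Gene 20319, chr3:83766321-83774314) and Sfrp1 (Entrez Gene 20377, chr8:23411502-23449632) moved in opposite directions. Sfrp2 ranged from 27.4 to 37.5 CPM (median 31.9) in control and from 51.9 to 63.3 CPM (median 58.2) in cKO testes, with no overlap and a log2 fold change of 0.85 (SE 0.09, adjusted p = 9.96e-05 in edgeR). Sfrp1 ranged from 305 to 364 CPM (median 334) in control and from 168 to 285 CPM (median 249) in cKO testes, also with no overlap. The log2 fold change of Sfrp1 was -0.51 (SE 0.12, adjusted p = 0.0174 in edgeR). Its lowest cKO values, 168 and 186 CPM, were those of replicates 5 and 6, which had both high Xist and the least Nr2f2 (50.2 and 53.6 CPM). In the 8 low-Xist libraries Sfrp1 changed by -0.36 (adjusted p = 0.0332, edgeR) and Sfrp2 by 0.90 (adjusted p = 0.00134, edgeR).

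Frzb, also known as Sfrp3, rose by less, from a control median of 7.13 CPM (5.38 to 9.94) to a cKO median of 10.6 CPM (9.36 to 11.03). One cKO pool fell within the control range. Its log2 fold change came to 0.48 (SE 0.13, adjusted p = 0.0340 in edgeR). It likewise passed in 4 of 12 such fits, and not in the 8 low-Xist libraries (0.42, adjusted p = 0.0782, edgeR). Sfrp4 had a control median of 12.6 CPM (7.03 to 13.8) and a cKO median of 6.78 CPM (4.08 to 10.8), and the one control within the cKO range was replicate 1. Its estimate of -0.73 missed the threshold over all libraries (SE 0.22, adjusted p = 0.0573 in edgeR), but it passed in the 8 libraries at -0.55 (adjusted p = 0.0471, edgeR) and in DESeq2 (adjusted p = 0.0148), and in edgeR without control replicate 1 or cKO replicate 2. Dkk2, Dkk3, the WNT-binding Wif1 and the WNT deacylase Notum had estimates from -0.21 to 0.34 over 12 libraries and did not pass. The 0.34 was that of Notum, which was -0.10 with Xist as a covariate and -0.55 in the 8 low-Xist libraries (adjusted p = 0.199, edgeR), and ran from -0.01 to 0.52 with 1 library left out.

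The R-spondins are secreted ligands of the LGR receptors. Rspo1, the R-spondin of ovarian development, ranged from 15.2 to 36.4 CPM (median 18.9) in control and from 16.3 to 40.1 CPM (median 22.0) in cKO testes. Its high values belonged to control replicate 1 and cKO replicates 5 and 6, and its log2 fold change was 0.29 (SE 0.26, adjusted p = 0.496 in edgeR). Rspo2, at 1.06 to 1.88 CPM in control and 1.36 to 3.39 CPM in cKO testes, passed in the 8 low-Xist libraries (0.88, adjusted p = 0.0412, edgeR) but not in all 12 (0.66, adjusted p = 0.119, edgeR).

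Of the 3 R-spondin receptors, 2 rose, beside 3.28% of all genes tested. Lgr4 had 193, 199 and 258 CPM in the lowest, median and highest control pools and 254, 259.5 and 272 CPM in the cKO pools. The highest control was replicate 1, and the other 5 controls, up to 215 CPM, were below all cKO pools. The log2 fold change of Lgr4 was 0.32 (SE 0.07, adjusted p = 0.0160 in edgeR), and 0.38 in the 8 libraries (adjusted p = 0.00798, edgeR). Lgr6, present at a few CPM, rose from a median of 1.03 CPM (0.894 to 2.97) to 2.93 CPM (2.31 to 3.40). Here too only control replicate 1 reached the cKO range. For Lgr6 the log2 fold change was 1.04 (SE 0.28, adjusted p = 0.0333 in edgeR) and passed in 2 of the 12 fits with a library left out, but without control replicate 1 it was 1.49 (adjusted p = 7.06e-05, edgeR), and in the 8 low-Xist libraries 1.38 (adjusted p = 0.00174, edgeR).

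Lgr5, the receptor best known from intestinal stem cells, split the libraries by Xist as well as by genotype. Over all libraries it ranged from 9.64 to 50.3 CPM in control and from 17.2 to 52.6 CPM in cKO testes, and its log2 fold change of 0.80 did not pass (SE 0.43, adjusted p = 0.260 in edgeR). In the low-Xist libraries the 5 controls had 9.64 to 13.2 CPM and the 3 cKO pools 17.2 to 18.8 CPM, a log2 fold change of 0.64 (adjusted p = 0.00448, edgeR). In the high-Xist libraries it was 50.3 CPM in the control and 37.9 to 52.6 CPM in the cKO pools.

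None of the 8 intracellular members reached even an unadjusted p of 0.05 over 12 libraries in edgeR with genotype as the only term. With Xist as a covariate Nkd1 passed (-0.36, adjusted p = 0.0160 in edgeR). Axin2, which is induced by β-catenin and feeds back on it, ranged from 24.8 to 80.6 CPM (median 35.5) in control and from 39.9 to 52.9 CPM (median 46.1) in cKO testes. Control replicate 1 gave the 80.6 CPM, and the 5 others, up to 37.5 CPM, were below all cKO pools. The log2 fold change of Axin2 was 0.15 over 12 libraries (adjusted p = 0.703, edgeR) and 0.46 without control replicate 1 (adjusted p = 0.0127, edgeR), and in the 8 low-Xist libraries it was 0.31 (adjusted p = 0.123, edgeR). Axin1, the constitutive scaffold of the degradation complex, had an estimate of 0.22 (-0.03 to 0.47). Nkd1, which binds Dishevelled, had -0.20 (-0.60 to 0.20). Lef1, the β-catenin partner that is itself often a target, had 15.1 to 26.1 CPM in control and 19.3 to 24.9 CPM in cKO testes, and its log2 fold change was 0.01 (-0.24 to 0.25). For Tcf7, Tcf7l1 and Tcf7l2 the estimates ran from -0.10 to 0.14, with adjusted p of 0.449 to 0.828 in edgeR's test.

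Levels of different genes were compared as CPM per kilobase of the longest transcript. On this scale Sfrp1 was the most abundant member of control testes, at 76.6, and stood at 53.8 in cKO testes, where Wnt6 was at 55.6. Wnt5a was second in control testes at 46.4 and fell to 29.7. Wnt6 and Lgr4 stood at 43.1 and 41.6 in control testes, and Lgr4 at 51.8 in cKO testes. Dkk1 moved from 2.35 to 14.8, which brought it from below Dkk3 (7.64 in control) to the level of Rspo1 (14.2 in cKO) and Fzd7 (14.2). Sfrp2 moved from 16.0 to 28.7 and so narrowed its distance to Sfrp1. Tcf7 was the highest TCF/LEF gene at 30.0 and 33.2, Fzd2 the highest Frizzled at 22.6 and 19.5, and Rspo1 the highest R-spondin at 11.4 and 14.2. The order of the members was close with the median transcript length of each gene (Spearman correlation across the 61 genes 0.971), but Wnt5a then came first and Sfrp1 sixth. Over the 12 libraries Fzd6 then stood level with Fzd2 (both 21.1 CPM per kb) and Fzd3, at 14.53, above Fzd7 and Fzd1, at 14.1 and 12.4, and Tcf7l1, at 57.2, above Tcf7, at 37.1.

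**Figure D3:**
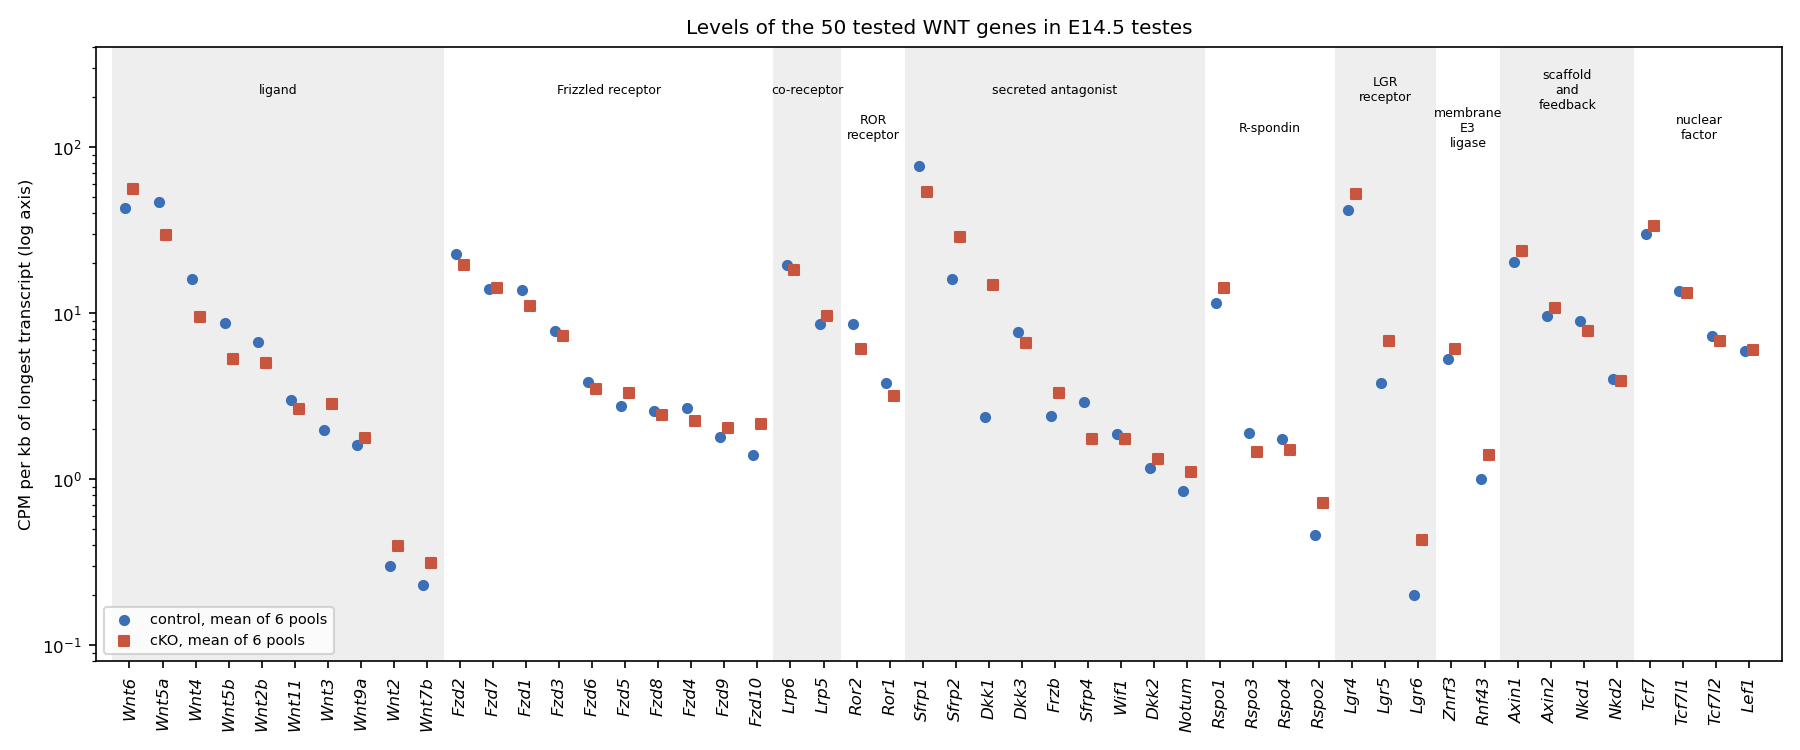
Mean level of the 50 tested WNT genes in control and cKO testes, in CPM per kilobase of the longest transcript on a log axis, grouped by role; each symbol is a mean of 6 pools. Levels span from 0.201 for Lgr6 to 76.6 for Sfrp1 in control testes, and Dkk1 shows the widest gap between genotypes.

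A set of members was higher in the high-Xist libraries of both genotypes, and since it was picked after the values were seen it is given as a description. In control replicate 1, 22 of the 50 tested members were above all other controls, and 10 members were higher in each of the 3 high-Xist cKO pools than in the other 3. Of all genes tested, 30.5% and 15.2% stood so, and 7.85% did both. The 10 members were all among the 22: Wnt2b, Wnt4, Wnt9a, Notum, Rspo1, Lgr5, Rnf43, Axin1, Axin2 and Nkd1. In some the margin was narrow. Between control replicate 1 and the next control, Notum had 2.33 and 2.29 CPM and Wnt9a 7.30 and 6.88 CPM. In the closest high-Xist and low-Xist cKO pools Wnt4 had 44.8 and 43.4 CPM. Rnf43, the ligase that removes Frizzleds from the membrane, had 12.1 CPM in control replicate 1 and 2.40 to 3.14 CPM in the other controls, and 8.82 to 9.21 CPM in the high-Xist cKO pools against 2.58 to 3.79 CPM in the rest. It overlaps the gene 1110028F11Rik on the same strand, so its counts are uncertain. Wnt5a and Fzd2 were lower in all 4 high-Xist libraries than in the low-Xist libraries of the same genotype. The sum of 4 markers of ovarian supporting cells (Foxl2, Fst, Bmp2 and Irx3) was 169 CPM in control replicate 1 and 73.7 to 117 CPM in the high-Xist cKO pools, against 9.10 to 12.6 CPM in the other controls and 14.7 to 20.9 CPM in the other cKO pools. None of these 4 markers passed the genotype test over 12 libraries in edgeR, and none was at 0 in any library. In the 8 low-Xist libraries Foxl2 (log2 fold change 1.45, adjusted p = 0.00958), Fst (0.62, adjusted p = 0.0216) and Bmp2 (0.67, adjusted p = 0.0379) were higher in cKO testes in edgeR. Sums of other lists stood apart in some of the same libraries. The sum of 3 meiotic germ cell markers was 237 CPM in control replicate 1 against 84.8 to 146 CPM in the other controls, and 240.0 to 402 CPM in the high-Xist cKO pools against 109.7 to 121 CPM in the rest. Stra8 of that list did not follow the sum. It had 5.27 CPM in control replicate 1, within the 3.12 to 10.2 CPM of the other controls. In the high-Xist cKO pools Stra8 ran from 2.58 to 87.6 CPM, against 3.72 to 6.54 CPM in the rest. The sum of 3 markers of the testicular epithelium was 609 CPM against 303 to 437 CPM among controls, and 426 to 595 CPM against 326 to 359.7 CPM among cKO pools. Of these, Podxl stood apart, at 424 CPM in control replicate 1 against 153 to 231 CPM in the other controls. Aldh1a2 (123 CPM) and Upk3b (61.8 CPM) in that pool lay within the other controls (97.1 to 128 and 47.2 to 78.2 CPM). Both also overlapped between the high-Xist and low-Xist cKO pools. The Sertoli sum was 536 to 712 CPM in the high-Xist cKO pools against 871 to 962 CPM in the others, while that of control replicate 1, 737 CPM, lay within the range of the other controls. The part of such cells in the levels of the WNT genes was not tested.

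**Figure D4:**
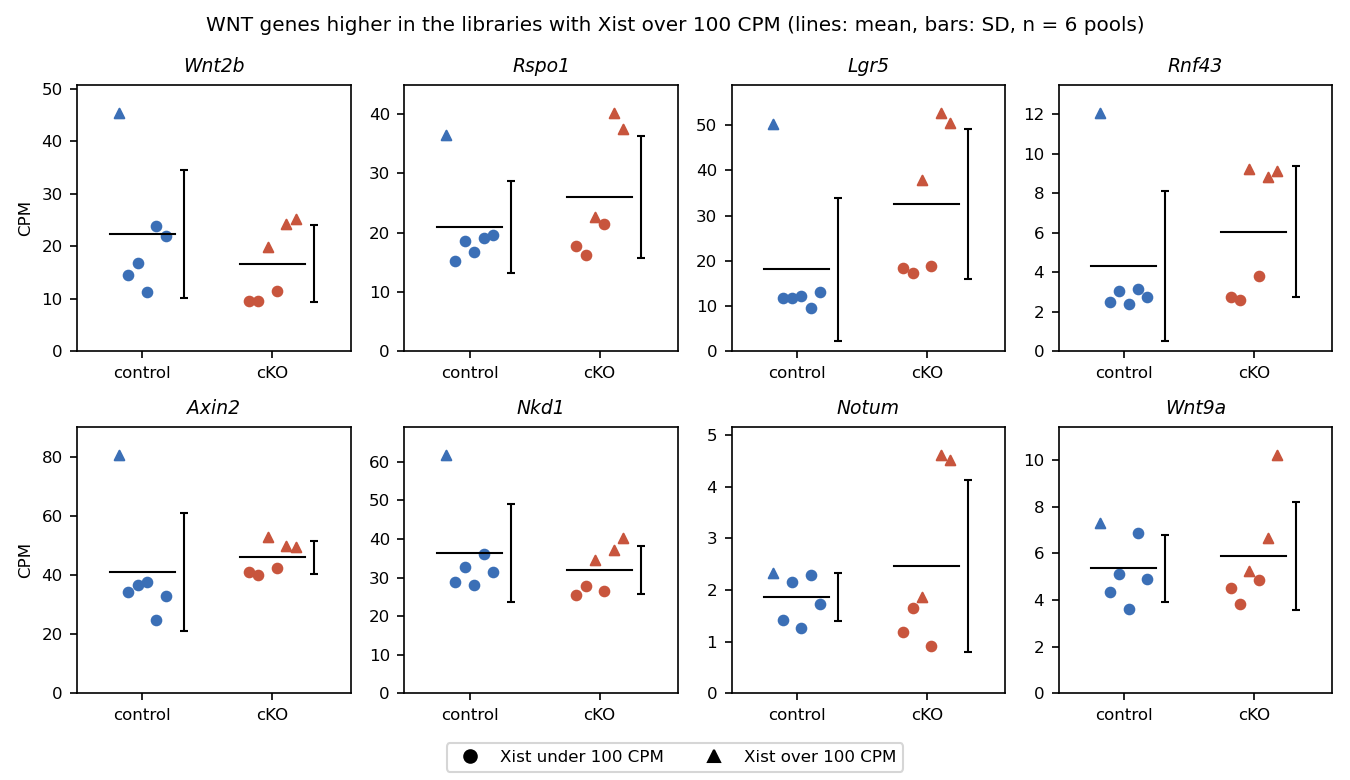
CPM of 8 of the 10 WNT genes that were higher in the high-Xist libraries of both genotypes, 1 point per pool; triangles are the 4 libraries with Xist over 100 CPM, lines are group means and bars the SD (n = 6). Lgr5 and Rnf43 are the clearest, with the high-Xist cKO pools at 37.9 to 52.6 CPM and 8.82 to 9.21 CPM.

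Some markers of other cell types moved with genotype beside the WNT genes. The sum of 3 interstitial markers was 755 to 942 CPM in control and 408 to 728 CPM in cKO testes, with 2 of 3 lower (Tcf21 and the deleted gene Nr2f2), and the sum of 4 contractile markers was 319.8 to 435 CPM and 178 to 277 CPM, with 4 of 4 lower. The fetal Leydig sum was 1560.1 to 2909 CPM in control and 841 to 1744 CPM in cKO testes, overlapping, with 4 of 5 lower. Pdgfra of the interstitial list (adjusted p = 0.0649) and Star of the Leydig list (adjusted p = 0.454) did not pass in edgeR, and the calls of Hsd3b1 and Cnn1 held in 4 and 9 of the 12 single-library omissions. Of 4 endothelial markers 1 was lower, Tek (adjusted p = 0.0352 in edgeR), which passed in 4 of those fits and not in the 8 low-Xist libraries (adjusted p = 0.182 in edgeR). No marker of the Sertoli, germ, meiotic germ, testicular epithelium, pericyte or mesonephric mesenchyme lists passed over 12 libraries in edgeR or DESeq2, and 3 (Stra8, Sycp1 and Ntrk3) had an unadjusted p under 0.05 in edgeR. The sums themselves were not tested. As for markers that were higher, 2 of 4 markers of mesonephric epithelium (Pax8 and Lhx1) were higher over 12 libraries (adjusted p = 0.0488 and 0.0418 in edgeR), with a sum of 6.35 to 12.6 CPM in control and 13.3 to 18.9 CPM in cKO testes, and Cdh16 of that list was at 0 in at least 1 library. Neither Pax8 nor Lhx1 passed in the 8 low-Xist libraries (adjusted p = 0.0808 and 0.107 in edgeR), and they passed in 2 and 4 of the 12 fits that each left out 1 library. Immune markers were higher in 2 of 3 (Csf1r and Cx3cr1), with a sum of 21.6 to 27.1 CPM in control and 31.4 to 40.1 CPM in cKO testes. Ptprc, the other marker of that list, did not pass (log2 fold change -0.08, adjusted p = 0.846 in edgeR). The part of these cell types in the WNT results was not tested.

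Beyond the members, 60 further genes of WNT secretion, reception, signalling and response were measured, and all 60 were tested. Of these 60, 5 passed, 3 lower and 2 higher, a share near the 8.13% of all genes tested. The count was 15 without control replicate 1, where 19.9% of all genes were called, 2 without control replicate 4 or 6, and 3 without control replicate 2 or cKO replicate 1, 3, 5 or 6. Ccnd1, the cyclin of the G1 phase and a target of β-catenin in several tissues, rose from 35.0 to 48.5 CPM in control to 68.3 to 103.8 CPM in cKO pools, without overlap (log2 fold change 1.02, SE 0.12, adjusted p = 0.000177 in edgeR). Twist1, a transcription factor of mesenchyme, fell from a median of 20.0 to 10.6 CPM (-0.85, SE 0.15, adjusted p = 0.00302 in edgeR). Prickle2, of the planar polarity branch, fell by 0.48 on the log2 scale (SE 0.12, adjusted p = 0.0220 in edgeR), with all cKO pools below all controls. Sostdc1, a secreted WNT and BMP antagonist, fell by 0.75 (SE 0.20, adjusted p = 0.0377 in edgeR), and the co-repressor Tle4 rose by 0.36 (SE 0.09, adjusted p = 0.0259 in edgeR). With 1 library omitted at a time Ccnd1 and Twist1 passed in all 12 fits, Prickle2 in 9, Tle4 in 6 and Sostdc1 in 3, and Tle4 did not pass in the 8 low-Xist libraries (adjusted p = 0.136, edgeR). Of 25 genes for secretion, receptors and co-factors and cytoplasmic components, none passed in edgeR, 4 had an unadjusted p under 0.05 (Wls, Gpc3, Adgra2 and Apc), and 1, Adgra2, passed in DESeq2. Ctnnb1, which encodes β-catenin, stood at 1064 to 1166 CPM in control and 1019.9 to 1102 CPM in cKO testes (log2 fold change -0.09, adjusted p = 0.246, edgeR).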

How the data were processed

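RNA was isolated from pools of 3 testes and polyadenylated RNA was sequenced with a strand-specific library. Per the submitters' processing notes and the study's methods, the authors trimmed reads with Trim Galore 0.6.7, aligned them to mm10 with STAR 2.5 and assigned them, with regard to strand, to RefSeq Curated genes by featureCounts (Subread 1.5.0-p1). The deposited values are raw counts per gene, without normalization. All 12 libraries were used, grouped by labelled genotype; nothing in the labels says which pools share a litter, and p-values measure the spread between these pools.

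Testing used edgeR 4.0.16 under R 4.3.3, with TMM scaling, filterByExpr (minimum count 10, minimum total 15), glmQLFit and glmQLFTest over all 15572 genes kept, Benjamini-Hochberg adjustment and a threshold of 0.05. A standard error is the log2 fold change divided by the square root of its F statistic. Transcript lengths came from GENCODE M21 for all 61 members. Alternatives were other scalings, no filter, DESeq2 1.42.0, voom of limma 3.58.1, a replicate block, Xist as a covariate, omission of the 4 libraries with Xist over 100 CPM, and omission of each library. The test was tried on simulated data first.

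The members, the pathway list and the marker lists were chosen with earlier results of these data known. Named with values were members past the threshold, with groups that did not overlap, or with a call that differed in the 8 low-Xist libraries. The 3 most abundant were named in each role: ligands, Frizzleds, co-receptors or ROR receptors, antagonists, R-spondins or LGR receptors, TCF/LEF genes and feedback inhibitors. Wnt4, Rspo1, Wnt5a, Axin2 and Lef1 and pathway genes past the threshold were named as well. Promoter windows were RefSeq's, on GRCm38.p6.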

Additional observations from a re-analysis of the deposited data

Results flagged for a closer look

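The 2 groups of 6 values of each of the 50 tested WNT genes were searched for a single pool far from the rest, by Dixon's ratio of the gap to the range at its 95% limit. Of 100 groups, 13 had such a pool, where chance gives about 5; over both groups of all genes tested the share was 7.84%. In 11 of the 13 the pool was control replicate 1, the control library with Xist at 891 CPM, which was the pool in 2.96% of the groups of all genes. It lay above the other controls at 80.6 CPM for Axin2, 258 CPM for Lgr4, 50.3 CPM for Lgr5 and 2.97 CPM for Lgr6. The same pool was highest at 61.7 CPM for Nkd1, 12.1 CPM for Rnf43, 36.4 CPM for Rspo1, 45.4 CPM for Wnt2b and 109.9 CPM for Wnt4, and lowest at 7.03 CPM for Sfrp4 and 255 CPM for Wnt5a. The others were Dkk2 in cKO replicate 2, at 6.81 CPM with the next pool at 4.72 CPM, and Wnt3 in control replicate 3, at 9.27 CPM with the next at 6.17 CPM.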

How the results depend on the processing

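The count of 11 WNT genes past the threshold was 11 with RLE or upper quartile scaling and with limma-voom, 10 without the filter, 13 with DESeq2 and 14 with Xist as a covariate. With the replicate number as a replicate block it was 8, but the numbers did not pair the samples. Of 6 same-numbered pairs, 2 had deviations correlated over 0.1 (range -0.33 to 0.24). No control library correlated best with the cKO library of its own number. Leaving out 1 library gave 6 (without cKO replicate 4 or 6) to 18 members (without control replicate 1), with 7 without control replicate 4 or 6 or cKO replicate 1 or 3, and 3 to 8 lower and 3 to 10 higher. Of all genes, 5.24% (without cKO replicate 4) to 7.96% were called in these fits, but 19.9% without control replicate 1, beside 5.98% with the block and 8.40% with Xist as a covariate. Of the pathway genes 2 to 15 passed, 1 to 4 lower and 1 to 11 higher, against 5, 3 and 2. Without the 4 high-Xist libraries 4 pathway genes passed as higher. The single-gene estimates of the 50 members and the 5 pathway genes stayed on the same side of the threshold in 1017 of these comparisons, lost a call in 64 and gained one in 19; no call changed sign. The causes were not tested.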
